A study of Mus musculus with 8 samples.

Results

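The genes of the oxidative phosphorylation (OXPHOS) machinery that are encoded in the nucleus were taken from a table of chromatin accessibility by the start of their symbol. Every region annotated to a protein-coding gene outside the mitochondrial chromosome whose symbol begins with Nduf, Sdh, Uqcr, Cox or Atp5 was a member. This gave 730 of the 489637 regions, annotated to 103 genes: 42 of complex I, 8 of complex II, 8 of complex III, 28 of complex IV and 17 of complex V. The assay was ATAC-seq, in which a transposase cuts open chromatin, on nuclei of mouse gastrocnemius, a mixed and mostly fast hindlimb muscle. The 4 Vehicle libraries and the 4 iMSBmal1KO libraries, the latter from Tamoxifen-treated mice, all had the genotype Cre+:iMSBmal1 fl/fl and an age of 6 months. Both groups therefore carry the Cre transgene and the floxed alleles, and the loss of Bmal1 and the Tamoxifen given to induce it cannot be told apart. In the iMSBmal1 line as published, the human skeletal actin promoter drives an inducible Cre, so that nuclei of cells other than muscle fibres keep Bmal1; the labels used here do not name the promoter. Nuclei of a pair of whole muscles went into each preparation, and the labels do not say how the libraries relate to single animals or at what time of day tissue was taken. The p-values below thus measure the spread between libraries.

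Complexes I to IV pass electrons from NADH and succinate to oxygen, and complexes I, III and IV pump protons across the inner mitochondrial membrane. Complex V, the ATP synthase, uses the proton gradient to make ATP. Most of the subunits are encoded in the nucleus, a few in mitochondrial DNA, and assembly factors join them without staying in the finished complex. The promoters of these genes are known for sites of the factors NRF1, GABP (an ETS factor), YY1 and, in muscle, ERR. BMAL1, the product of Bmal1 (Arntl in the table), pairs with CLOCK or NPAS2 and binds E-boxes. Some subunits have a heart and muscle form and a general form, and Cox6a2, Cox7a1 and Cox8b are the muscle forms.

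Total signal corresponded to between 4.31 and 29.5 M reads per library (M, 1e6). Vehicle replicate 4 was the shallowest, and the mitochondrial chromosome took 16.5% of its reads, against 1.11% to 5.51% in the other libraries. A tested OXPHOS promoter region held a median of 15 reads in that library and of 128.5 reads in iMSBmal1KO replicate 1, the deepest. At the targeted gene Arntl, 1 of 37 tested regions differed (chr7:113250869-113251387, in a 5' UTR exon), with 140 to 244 in Vehicle and 336 to 419 in iMSBmal1KO libraries, a log2 change of 1.08 ± 0.21 (SE) and an adjusted p of 0.0468 by limma-trend; whether it lies in the deleted part is not given in the sources used here. The promoter signal of Npas2, a partner and paralogue of CLOCK, was 123 to 186 in Vehicle and 494 to 631 in iMSBmal1KO libraries, an adjusted p of 3.39e-09 by limma-trend. Among the 8 skeletal muscle fibre genes listed, the promoters of Acta1, Ckm, Tnnt3 and Mylpf lay between the 97.4 and 99.4 percentile of all genes in signal per kb and that of Pvalb at the 87.4 percentile. The fast myosins were lower, with Myh4 at the 40.7 and Myh1 at the 17.8 percentile and Myh2 below the filter. Of the slow-fibre genes, Tnni1 stood at the 35.9, Tnnt1 at the 10.2 and Myl2 at the 6.34 percentile, and Myh7 was below the filter. No marker on the lists of cell types passed the threshold. The neuronal gene Snap25 was 9.38 to 31.9 in Vehicle and 28.9 to 40.6 in iMSBmal1KO libraries; its part in the results below was not tested. The markers of macrophages and leukocytes, adipocytes and erythroid cells were below the filter on low signal or had no promoter region, at a summed signal of at most 12.5 in any library, and those of endothelial cells summed to 59.7 to 90.7 in Vehicle and 66.5 to 89.9 in iMSBmal1KO libraries. In bulk nuclei, fewer cells of a type and less open chromatin per cell cannot be told apart.

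OXPHOS promoters had long regions at the start and a high signal. Of the member regions, 271 passed the filter on low signal, 37.1% against 25.5% of all regions. Promoter regions, those at most 1000 bp from the transcription start in the table, made up 64.9% of them, compared with 30.3% of all tested regions. In 74 of the 86 genes with a tested promoter region (86.05%), the strongest one overlapped the start itself, against 61.3% of protein-coding genes, and it was 539.5 bp long in the median against 371 bp. To give 1 value per gene, the signal of all regions within 1000 bp of a start was summed, here called the promoter sum. It could be formed for 98 member genes and passed the filter in 90. Per kb of region, the median OXPHOS promoter had a signal of 512 against 285 for all protein-coding genes, and stood at the 72.3 percentile.

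The promoter sequences had features in common that the choice of genes by symbol did not use. RefSeq promoters on GRCm38.p6, the 250 bases before and 50 bases after a start, were found for 85 member genes, with 91 starts. Their ratio of observed to expected CpG dinucleotides was 0.8289 in the median against 0.567 over all 21263 promoters of protein-coding genes, and 86.8% of them exceeded 0.6 against 47.6%. In 24 of the 85 genes (28.2%) another gene started on the opposite strand within 1000 bp upstream, against 8.48% of all genes. The letters of the NRF1 site, GCGCATGC, were held by 13.2% of member promoters and 3.52% of all, on either strand. The YY1 letters AANATGGC were held by 22.0% and 6.37%, the ETS/GABP letters CCGGAAGT by 9.89% and 5.15%, and the ERR letters TCAAGGTCA by 2.20% and 0.334%. The E-box CACGTG was held by 7.69% of member promoters and 7.84% of all, and the SP letters GGGCGG by 48.4% and 46.2%. Of the 91 member promoters, 20 held the YY1 letters, 12 those of NRF1, 9 those of ETS/GABP and only 2 those of ERR. These shares are descriptions of the letters, without a test, and say nothing of binding.

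The 120 bases upstream of the RefSeq start are printed below for genes on which the results turn: Cox7b, Ndufb8 and Cox7c, which had the smallest p-values, the general and muscle forms Cox7a2 and Cox7a1, Cox8a and Cox8b, and Atp5g2 and Cox20, which show an NRF1 and a YY1 match. All are written 5' to 3' on the gene's strand, with matches to any of the 6 motifs in capitals.
Cox7b, chrX:106015580-106015699, plus strand: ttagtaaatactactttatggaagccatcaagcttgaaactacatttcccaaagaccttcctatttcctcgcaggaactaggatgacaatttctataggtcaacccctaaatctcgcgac
Ndufb8, chr19:44555443-44555562, minus strand: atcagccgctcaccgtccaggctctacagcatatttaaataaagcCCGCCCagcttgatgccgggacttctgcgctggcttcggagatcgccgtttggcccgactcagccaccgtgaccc
Cox7c, chr13:86046796-86046915, minus strand: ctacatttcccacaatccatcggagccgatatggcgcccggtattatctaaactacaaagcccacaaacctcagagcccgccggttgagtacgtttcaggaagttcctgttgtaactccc
Cox7a2, chr9:79759854-79759973, minus strand: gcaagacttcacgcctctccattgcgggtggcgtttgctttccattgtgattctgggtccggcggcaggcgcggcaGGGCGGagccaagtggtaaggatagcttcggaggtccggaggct
Cox7a1, chr7:30184051-30184170, plus strand: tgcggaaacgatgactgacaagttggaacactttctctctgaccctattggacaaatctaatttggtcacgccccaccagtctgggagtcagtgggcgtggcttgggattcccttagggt
Cox8a, chr19:7217617-7217736, minus strand: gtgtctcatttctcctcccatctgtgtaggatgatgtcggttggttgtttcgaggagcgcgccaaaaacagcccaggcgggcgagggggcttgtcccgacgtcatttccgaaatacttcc
Cox8b, chr7:140900447-140900566, minus strand: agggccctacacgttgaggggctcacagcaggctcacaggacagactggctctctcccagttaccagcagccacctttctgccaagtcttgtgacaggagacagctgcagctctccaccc
Atp5g2, chr15:102671048-102671167, minus strand: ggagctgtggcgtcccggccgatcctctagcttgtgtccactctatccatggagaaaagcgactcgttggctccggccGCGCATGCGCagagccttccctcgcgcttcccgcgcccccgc
Cox20, chr1:178319033-178319152, plus strand: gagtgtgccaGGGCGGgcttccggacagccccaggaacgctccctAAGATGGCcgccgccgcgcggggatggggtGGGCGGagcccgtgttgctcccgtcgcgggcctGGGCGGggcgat
In each of the 9 genes the strongest promoter region of the table overlapped the start. The general forms Cox7a2 and Cox8a had a CpG ratio of 0.833 and 0.842 over the whole window, and the muscle forms Cox7a1 and Cox8b one of 0.333 and 0.115. Cox7b, at 0.368, was low among the member promoters. Cox7b and Cox7c share the run ctacatttccca of 12 bases, which was found in 2 of the 91 member promoters and in 0.602% of all; it was looked for after the sequences had been seen.

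No OXPHOS region passed the threshold between iMSBmal1KO and Vehicle. Of 271 tested regions 0 were called at an adjusted p under 0.05 by limma-trend, against 0.0881% of all 124901 tested regions, and of 90 promoter sums 0 were called, against 0.123% of 12973. The smallest adjusted p was 0.105 for a region and 0.232 for a promoter sum (limma-trend). At an unadjusted p under 0.05, 26 member regions were higher in iMSBmal1KO and 2 lower, where the background was 6.59% higher and 2.63% lower. This is 9.59% of the member regions in the higher direction. Among promoter sums 22 were higher (24.4%) and 0 lower at that level, against 10.1% and 1.13% of all genes. This count of 22 depends on single libraries: it was 9 without iMSBmal1KO replicate 2 (3.99% of all genes higher in that setting), 11 without Vehicle replicate 3 (5.99%), 13 without Vehicle replicate 4 (4.49%) and 13 without iMSBmal1KO replicate 1 (6.53%). It was 34 without Vehicle replicate 1 (13.1%) and 41 without Vehicle replicate 2 (21.9%). With total-read scaling it was 10, where 3.92% of all genes were higher and 2.98% lower. With limma-voom it was 4, with 1 lower, where 1.48% of all genes were higher and 6.01% lower.

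Most OXPHOS promoters had a small positive change under the deposited scaling, as did most genes. The median log2 change of the 90 promoter sums was 0.28 and of all 12973 it was 0.16; 80 members had a change above 0 (88.9%), against 77% of all genes, and 60 lay above the median of all genes. The count above 0 was 68 with TMM or median-of-ratios scaling (75.6%, against 59.0% and 58.9% of all genes). It was 67 with total-read scaling (74.4% against 56.9%), 62 with loess scaling (68.9% against 50.8%) and 55 with limma-voom (61.1% against 43.4%). All genes together thus lie above 0 under the deposited scaling, and with TMM, median-of-ratios or total-read scaling their median became 0.036 to 0.047, so changes of gene lists are given relative to it. The OXPHOS median exceeded that of all genes by 0.118, by 0.117 under each of those 3 scalings, by 0.107 with limma-voom and by 0.072 with loess scaling. In 7 genes every iMSBmal1KO value lay above every Vehicle value (7.78%), against 3.46% of all genes, and in 0 genes below, against 0.84%. The change also varied with signal level, without a steady order: among genes below the lowest quartile of signal the median was 0.10 for 11 members and 0.05 for all, between the lowest and the middle quartile 0.39 for 15 members and 0.21 for all, between the middle and the highest quartile 0.28 for 38 members and 0.22 for all, and above the highest quartile 0.16 for 26 members and 0.13 for all.

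**Figure D1:**
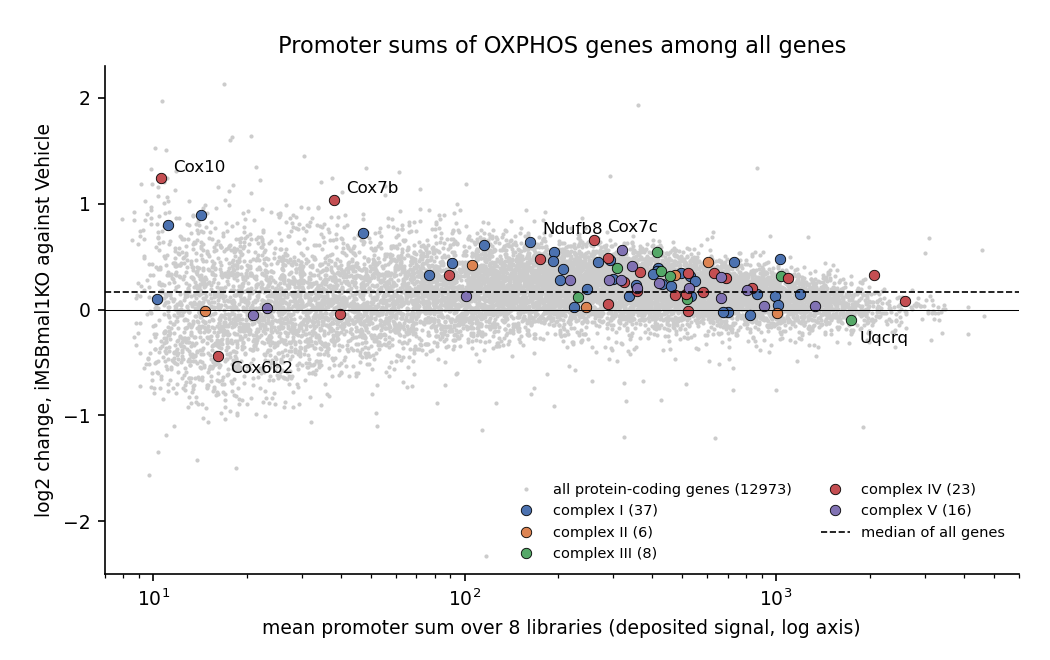
Log2 change of the promoter sum (iMSBmal1KO against Vehicle, y axis) against its mean over the 8 libraries (x axis, log scale) for all 12973 protein-coding genes in grey and the 90 OXPHOS genes coloured by complex. The OXPHOS points sit mostly above the dashed median of all genes, 0.16, within the spread of the grey points, and none passed the threshold.

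The difference followed the libraries unevenly. Each promoter sum was expressed as its deviation from that gene's mean over the 8 libraries (log2), and the median over OXPHOS genes was set against the median over all genes. For Vehicle libraries the OXPHOS median minus that of all genes was 0.051, -0.00012, -0.168 and -0.126, in the order of their replicate numbers. For iMSBmal1KO libraries it was 0.013, 0.062, 0.059 and 0.057. Vehicle replicates 3 and 4 were low, Vehicle replicate 1 lay among the iMSBmal1KO libraries, and the groups overlapped. Vehicle replicate 4 was the lowest of the 8 libraries in 65 of the 90 OXPHOS genes (72.2%), against 56.2% of all genes, and iMSBmal1KO replicate 2 the highest in 47, against 38.5% of all genes. The same 2 Vehicle libraries had the lowest share of nuclear reads in promoter regions of any gene (48.7% in replicate 3), against 51.4% to 53.5% in the other 6, and the highest mitochondrial shares, 5.51% and 16.5%. The part of these measures in the result was not tested. Without Vehicle replicate 3 the OXPHOS median exceeded that of all genes by 0.0821, and without Vehicle replicate 4 by 0.0913. OXPHOS regions held 0.359% ± 0.040 of the nuclear reads in Vehicle and 0.379% ± 0.039 in iMSBmal1KO libraries (SD, n = 4 each), a difference smaller than the spread.

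**Figure D2:**
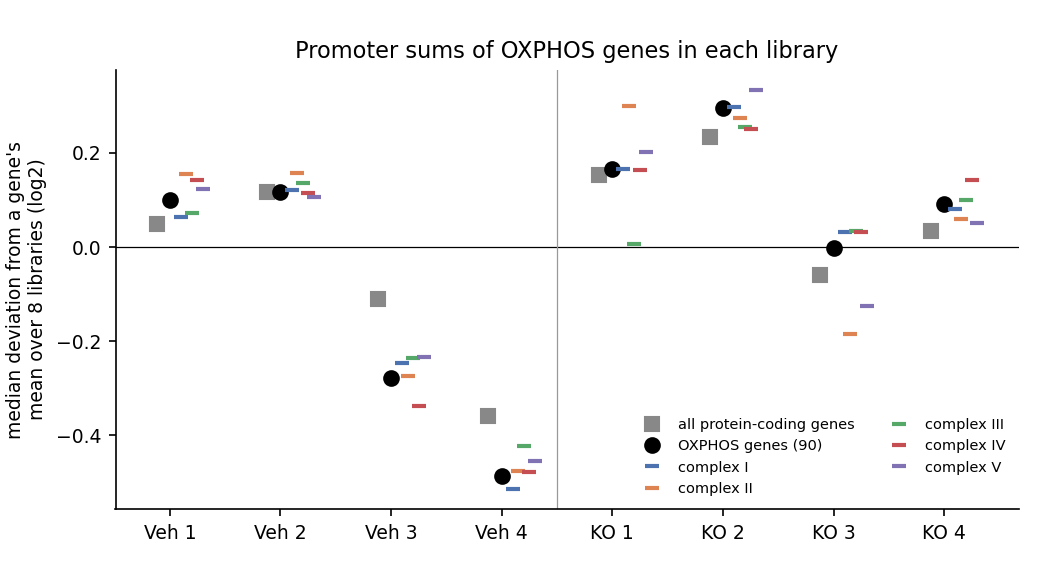
Median deviation of promoter sums from each gene's mean over the 8 libraries (log2, y axis), by library (x axis), for all genes (grey squares), the 90 OXPHOS genes (black circles) and the genes of each complex (coloured bars). Vehicle replicates 3 and 4 lie lowest for OXPHOS genes, at -0.28 and -0.49, and further down than all genes at -0.11 and -0.36.

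Among promoter regions, those at the transcription start had higher values than those beside it. Of 80 tested OXPHOS regions that overlap an annotated start, in 77 genes, 73 had a log2 change above 0 (91.25%). Among the 11516 such regions of any gene the share was 80.5%, and the medians were 0.31 and 0.21. The count of 73 was 66 with TMM, median-of-ratios or total-read scaling, where 63.9% to 65.7% of all start regions were above 0. It was 65 with loess scaling (63.9%), 68 with limma-voom (71.4%) and 64 without Vehicle replicate 4 (68.1%). Of 96 tested regions within 1000 bp that do not touch the start, 48 had a change above 0 (50%, against 61.6% of all such regions), with a median of 0.0002 against 0.11. The regions at the start were longer (548.5 against 119 bp in the median) and stronger (a median signal of 416 against 20.5). With a stricter filter on low signal, 27 regions beside starts remained, 16 of them above 0 and with a median of 0.09, and the median of the 75 at starts was 0.31. Set against each other within a library, the median deviation at starts minus that beside them came to 0.036, 0.054, -0.306 and -0.375 for the Vehicle libraries in replicate order. It came to 0.095, 0.223, 0.070 and -0.060 for the iMSBmal1KO libraries. Vehicle replicates 3 and 4 again stood low, and for all genes they did too, at -0.202 and -0.164 against -0.027 to 0.112 in the other 6. This division was made after the values had been seen and has no test of its own. Among the 7 start regions with a change below 0 were those of Uqcrq, Ndufa6, Cox19, Ndufaf8, Sdhb and Ndufv3.

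Cox7b, a small accessory subunit of cytochrome c oxidase encoded on the X chromosome, had the smallest p among the promoter sums. Its promoter sum (3 regions, chrX:106015638-106016136) had values of 32.0, 32.9, 22.9 and 12.5 in the Vehicle libraries, in replicate order here and below, and of 61.6, 61.9, 33.4 and 46.4 in the iMSBmal1KO libraries. The groups did not overlap, although the lowest iMSBmal1KO value lay just above the highest Vehicle value. The log2 change was 1.04 ± 0.29 (SE; adjusted p = 0.232 by limma-trend), the second largest among the 90 genes after Cox10. Cox7b was also one of the weaker OXPHOS promoters, at 105 per kb and the 23.6 percentile of all genes. The other X-linked member, Ndufa1, a membrane subunit of complex I, was 39.4, 44.2, 33.0 and 25.01 in Vehicle and 71.1, 66.9, 47.7 and 48.9 in iMSBmal1KO libraries, a log2 change of 0.72 ± 0.25 (adjusted p = 0.392, limma-trend), again without overlap. The labels do not give the sex of the mice, but regions of the Y-linked gene Uty had a summed signal of 53.2 to 152 across the 8 libraries, and the 359 promoter sums on the X chromosome had a median change of 0.21 against 0.16 on the others.

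Cox7c, another small accessory subunit of complex IV, had promoter sums of 254, 288, 150 and 138 in Vehicle and 339, 372, 285 and 260 in iMSBmal1KO libraries. Vehicle replicates 3 and 4 stood far below the others, and replicate 2 lay within the iMSBmal1KO range. Its log2 change was 0.65 ± 0.21 (adjusted p = 0.366, limma-trend). Ndufb8, an accessory subunit in the membrane arm of complex I whose protein is widely blotted as a marker of the assembled complex, had promoter sums of 150, 140, 128 and 90.7 in Vehicle and 182, 235, 180 and 187 in iMSBmal1KO libraries. Here the groups did not overlap, and the log2 change was 0.64 ± 0.20 (adjusted p = 0.354, limma-trend). Ndufs4, a complex I subunit whose loss in mice gives a model of Leigh syndrome, had a log2 change of 0.61 ± 0.21 (adjusted p = 0.392, limma-trend), with 64.8 to 128 in Vehicle and 113 to 153 in iMSBmal1KO libraries. Without Vehicle replicate 2, 662 of the 12973 promoter sums passed the threshold, 9 of them OXPHOS genes: Cox7b, Cox7c, Ndufs4, Atp5mpl, Uqcr10, Ndufs6, Ndufb8, Ndufs7 and Ndufa1; without any other library 0 did.

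**Figure D3:**
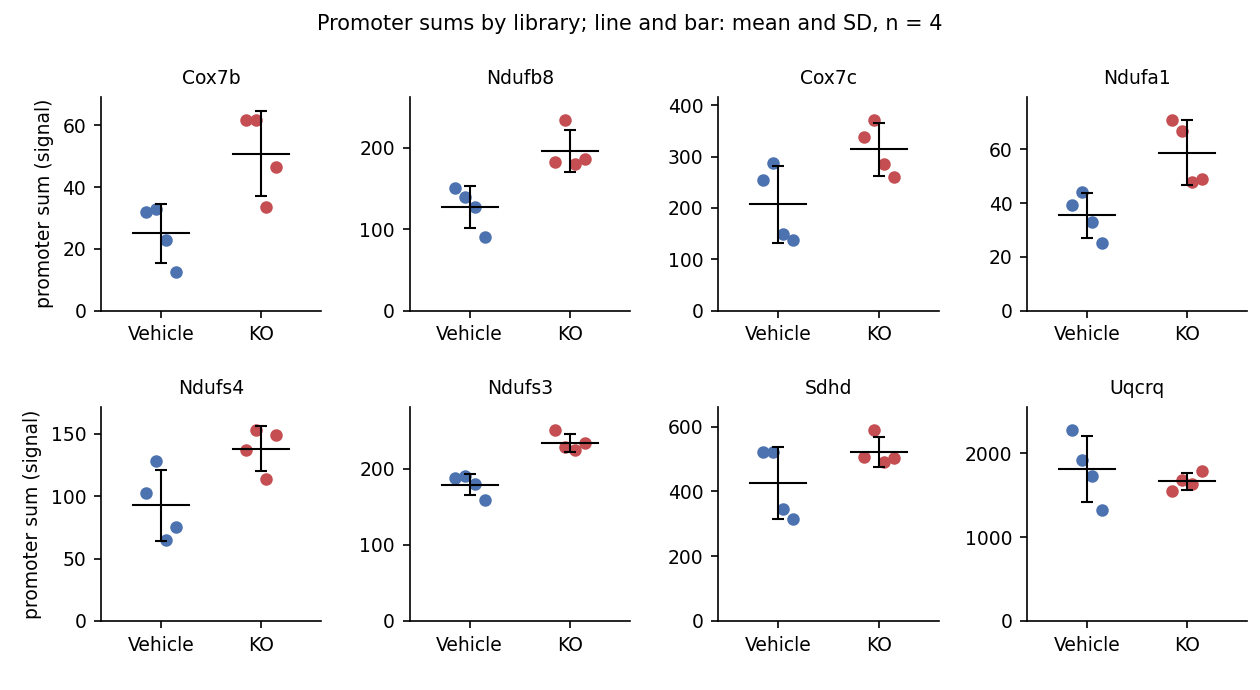
Promoter sums (deposited signal, y axis from 0) of 8 OXPHOS genes in the 4 Vehicle (blue) and 4 iMSBmal1KO (red, KO) libraries, points ordered by replicate number within a group, with the mean and SD. Cox7b, Ndufb8, Ndufa1 and Ndufs3 show no overlap between groups, Cox7c, Ndufs4, Sdhd and Uqcrq do, and Vehicle replicate 4 is the lowest Vehicle library in 7 of the 8.

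By complex, the medians of the promoter sums of complexes I, III and IV exceeded that of all genes by more than those of II and V. The median log2 change relative to all genes was 0.15 for 37 complex I genes, 0.16 for 8 complex III genes and 0.14 for 23 complex IV genes. It was 0.01 for 6 complex II genes and 0.04 for 16 complex V genes. The order of the complexes was not stable: with single libraries left out the medians ran from 0.0999 to 0.194 for complex I, 0.088 to 0.213 for III, 0.081 to 0.153 for IV, -0.036 to 0.115 for II and -0.0063 to 0.086 for V. Without Vehicle replicate 4, complex II stood at 0.115, above complexes I (0.103), III (0.088) and IV (0.092), and without Vehicle replicate 3 complex IV was at 0.081. With the stricter filter complex II was at 0.150. The differences between complexes were not tested. Complex I held 12 of the 22 genes at an unadjusted p under 0.05, complex IV 5, complexes III and V 2 each and complex II 1. In complex I the spread ran from -0.05 for Ndufa6 to 0.89 for Ndufa7, an accessory subunit with a weak promoter of 7.63 to 13.4 in Vehicle and 13.8 to 21.5 in iMSBmal1KO libraries. By role, 52 accessory subunits had a median of 0.28, 17 assembly factors of 0.32 and 20 core subunits of 0.19, and the supercomplex factor Cox7a2l had a change of 0.34, on the scale where all genes have 0.16.

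Among the core subunits of complex I, which carry its redox centres, Ndufs3 showed the tightest separation. Its promoter sum was 188, 190, 180 and 159 in Vehicle and 251, 228, 224 and 235 in iMSBmal1KO libraries, with a log2 change of 0.39 ± 0.19 (adjusted p = 0.432, limma-trend); it is named for its values after they were seen. Ndufs7 and Ndufv2 had changes of 0.48 and 0.45, Ndufv1 of 0.15 and Ndufs8 of 0.04. The promoter sum of Ndufs1, the largest core subunit, was below the filter, with the only promoter region at a signal of 5.02 to 10.0. In complex III, Uqcr10, a small accessory subunit, had 410, 462, 245 and 256 in Vehicle and 399, 546, 511 and 488 in iMSBmal1KO libraries, a log2 change of 0.55 ± 0.20. Uqcrq, another small subunit, was among the strongest OXPHOS promoters and had one of the largest negative changes, with 1323 to 2280 in Vehicle and 1545 to 1795 in iMSBmal1KO libraries and a log2 change of -0.10 ± 0.17; without Vehicle replicate 1 the change was 0.02. In complex V, Atp5mpl, a small membrane subunit also known as 6.8PL, had the largest change, 0.56 ± 0.20. Its values were 297, 350, 247 and 159 in Vehicle and 358, 408, 384 and 350 in iMSBmal1KO libraries, so that only the highest Vehicle value met the lowest iMSBmal1KO value.

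Complex II, succinate dehydrogenase, is the only complex with no subunit from mitochondrial DNA, and it is also part of the citric acid cycle. Sdhb, the iron-sulfur subunit, had a promoter sum of 832 to 1137 in Vehicle and 811 to 1141 in iMSBmal1KO libraries, a log2 change of -0.03 ± 0.18. Sdhd, one of the membrane anchors, had 522, 520, 347 and 316 in Vehicle and 505, 590, 489 and 503 in iMSBmal1KO libraries, a log2 change of 0.32 ± 0.19 (adjusted p = 0.493, limma-trend). Vehicle replicates 1 and 2 lay within its iMSBmal1KO range. The promoter regions of the other anchor, Sdhc, were weak, with 9.59 to 21.9 in Vehicle and 8.35 to 20.5 in iMSBmal1KO libraries, and a log2 change of -0.02 ± 0.38. The promoter sum of Sdha, the flavoprotein, was 3.13 to 11.9 and below the filter. The assembly factor Sdhaf2, which helps to attach FAD to Sdha, had 294 to 648 in Vehicle and 585 to 767 in iMSBmal1KO libraries and a log2 change of 0.45 ± 0.20, the 1 gene of complex II at an unadjusted p under 0.05.

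Levels between OXPHOS genes spanned a wide range. The strongest promoters per kb of region were Uqcrq with 1835 ± 297, Cox20 with 1776 ± 359 and Cox14 with 1551 ± 246 (SD, n = 8 libraries). Within libraries, Uqcrq lay above Cox14 in every one, while the order of Uqcrq and Cox20, and that of Cox20 and Cox14, changed between libraries. Cox20 and Cox14 are assembly factors that act on newly made core subunits of complex IV. The weakest that passed the filter were Cox6b2 with 33.2 ± 16.1, Ndufaf5 with 48.0 ± 17.0 and Cox10, an enzyme of heme A synthesis, with 60.8 ± 33.7. Cox10 also had the largest log2 change of any member, 1.24 ± 0.44 (adjusted p = 0.392, limma-trend), with 2.13, 6.16, 6.99 and 9.38 in Vehicle and 9.84, 13.4, 16.7 and 20.1 in iMSBmal1KO libraries. The groups did not overlap, but the highest Vehicle value and the lowest iMSBmal1KO value were close and each value rests on few reads. The 8 genes whose promoter sum was below the filter were Atp5b, Cox4i2, Cox5b-ps, Ndufa8, Ndufaf2, Ndufb9, Ndufs1 and Sdha, and no region lay within 1000 bp of a start for Cox15, Cox4i1, Cox7b2, Ndufb5 and Sdhaf1. Several of these, such as Atp5b and Cox4i1, are constitutive subunits, so a missing promoter region in the table does not show a closed promoter. Cox8c and Ndufa4l2 were not analysed here.

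The muscle and general isoforms of complex IV differed in which promoter carried more signal, and the ratios did not differ between the groups beyond their spread. Cox7a1, the muscle form, had 1108 ± 184 per kb in Vehicle and 1218 ± 18.1 in iMSBmal1KO libraries (SD, n = 4 each), and Cox7a2, the general form, 707 ± 221 and 870 ± 95.4. The muscle form was higher in 8 of 8 libraries, by 0.59 ± 0.31 on the log2 scale, but by only 0.01 when the signal was summed and not divided by length. Cox8b, the muscle form, was lower than Cox8a in 8 of 8 libraries, at 235 ± 35.9 against 810 ± 192 in Vehicle and 263 ± 32.3 against 982 ± 132 in iMSBmal1KO libraries, a log2 difference of -1.83 ± 0.13; it was -0.935 as summed signal. Cox6a2 and its general form Cox6a1 did not differ beyond their spread, with 417 ± 64.1 against 490 ± 45.8 in Vehicle and 497 ± 70.6 against 512 ± 96.8 in iMSBmal1KO libraries; the log2 difference of -0.14 turned to 0.16 as summed signal and to 0.30 with regions up to 2000 bp from the start. The testis form Cox6b2 had 37.3 ± 15.7 and 29.0 ± 17.7 per kb against 360 ± 63.4 and 500 ± 74.0 for Cox6b1. The change of this log2 ratio between groups, iMSBmal1KO minus Vehicle, was -0.20 for Cox7a1 over Cox7a2, -0.13 for Cox8b over Cox8a and 0.21 for Cox6a2 over Cox6a1, each smaller than the larger of the 2 groups' SDs. It was -0.94 for Cox6b2 over Cox6b1, with SDs of 0.79 and 1.05. Ndufa4, now counted as a subunit of complex IV, had 893 ± 225 and 1006 ± 81.9 per kb.

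**Figure D4:**
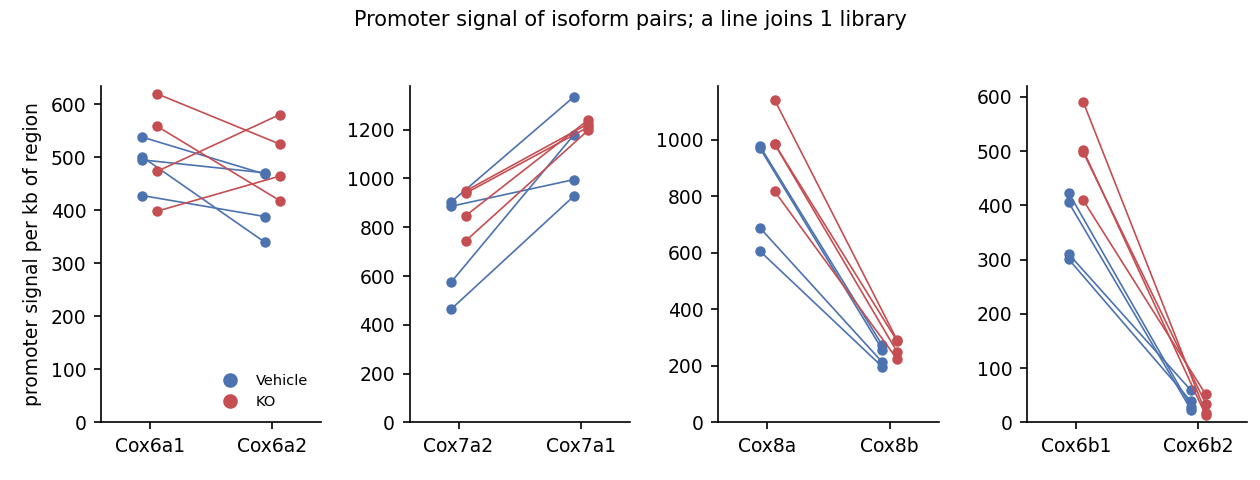
Promoter signal per kb of region (y axis from 0) of 4 isoform pairs of complex IV, general form on the left and tissue-specific form on the right, with a line for each of the 4 Vehicle (blue) and 4 iMSBmal1KO (red, KO) libraries. Cox7a1 lies above Cox7a2 and Cox8b below Cox8a in all 8 libraries, while the lines between Cox6a1 and Cox6a2 cross.

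Outside the promoters, 95 member regions were tested, with a median log2 change of 0.26 against 0.11 for all regions outside promoters. By the table's gene section, the median was 0.21 in 152 regions called TSS (0.17 in all such regions), 0.13 in 57 introns (0.10), 0.25 in 22 regions of 3' UTR exons (0.10) and 0.20 in 28 regions at transcript ends (0.06), with 0 called in any of them. It was below 0 in 8 regions of coding exons (-0.08 against 0.06, 3 of the 8 above 0) and in 4 regions of 5' UTR exons (-0.06 against 0.08, 1 of the 4 above 0). Of all member regions 13 had every iMSBmal1KO value above every Vehicle value (4.80%, against 3.62% of all tested regions) and 4 every value below (background 1.87%). Among the regions with the smallest p and higher signal, a region of Atp5md, another small subunit of complex V (chr19:47088388-47088497, 2150 bp downstream of the start and annotated as a 5' UTR exon), had a signal of 16.0, 15.4, 3.81 and 6.25 in Vehicle and 29.96, 19.2, 28.6 and 23.8 in iMSBmal1KO libraries. Its log2 change was 1.39 ± 0.40 (adjusted p = 0.315, limma-trend).

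Fewer member regions had lower signal in iMSBmal1KO at an unadjusted p under 0.05, 2 against 26, and the regions with the smallest p in this direction had lower signal than the median start region. A region inside Atp5d, the delta subunit of the ATP synthase (chr10:80142630-80142754), had 37.3, 29.8, 42.6 and 40.6 in Vehicle and 29.1, 16.7, 16.7 and 28.9 in iMSBmal1KO libraries, without overlap and with a log2 change of -0.73 ± 0.30 (adjusted p = 0.501, limma-trend). The promoter sum of that gene, which holds 9 regions, had a change of 0.03 ± 0.18. A region at the 3' end of Sdhaf2 (chr19:10508174-10508634) had 67.8 to 71.9 in Vehicle and 37.7 to 61.9 in iMSBmal1KO libraries, while its promoter sum pointed the other way, as given above. Regions of Uqcrc1 (chr9:108947495-108947551) and Sdhb (chr4:140960787-140960861) had log2 changes of -0.77 ± 0.38 and -0.72 ± 0.37, and in both the groups overlapped.

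The member region with the smallest p of all does not lie at the gene that the table names. It is chr16:91847614-91847968, annotated as an intron of Atp5o, the subunit that joins the stalk of the ATP synthase to its head. Its signal was 259, 194, 179 and 134 in Vehicle and 330, 418, 353 and 380 in iMSBmal1KO libraries, without overlap, and the log2 change was 0.98 ± 0.21 (adjusted p = 0.105, limma-trend). This region passed the threshold under 5 of 18 alternatives, with an adjusted p of 0.00864 with loess scaling and of 0.0213, 0.0224, 0.0408 and 0.0498 with TMM scaling, median-of-ratios scaling, limma-voom and a stricter filter, and over all 18 its adjusted p ran from 0.00864 to 0.392. It is 79014 bp from the start of transcript Atp5o-207 and inside Itsn1, an endocytic scaffold gene, by the RefSeq gene positions. Altogether 70 of the 730 member regions were over 1000 bp away from the RefSeq gene of the same symbol: 51 of the 57 annotated to Atp5o, 14 of the 22 to Cox6c, which lie in Vps13b, and 5 others. The 19 of them that were tested had a median log2 change of 0.12 and the 252 at their own gene one of 0.20. At Atp5o itself the promoter sum was 313 to 449 in Vehicle and 404 to 532 in iMSBmal1KO libraries, a log2 change of 0.25 ± 0.19.

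**Figure D5:**
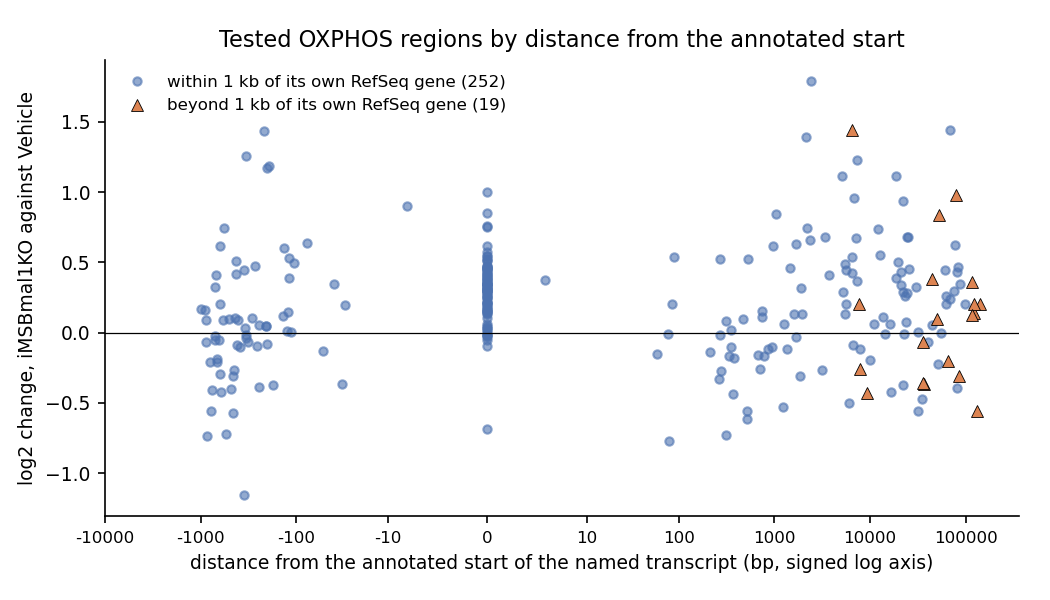
Log2 change (y axis) of the 271 tested OXPHOS regions against the distance from the start of the transcript they are annotated to (x axis, signed log scale in bp, 0 for regions that overlap it). Of the 80 regions at 0, 73 lie above the line of no change (91.25%, against 80.5% of the regions of any gene that overlap a start). Orange triangles mark the 19 regions over 1000 bp from the RefSeq gene of the same symbol.

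Genes of the same pathway outside the symbols chosen, such as cytochrome c (Cycs), the complex III subunit Cyc1 and further assembly factors, were read from a list of 43 genes, of which 39 were in the table. Of their 91 tested regions 0 were called, and 5 were higher and 0 lower at an unadjusted p under 0.05, a share of 5.49% against 6.59% and 2.63% of all regions. Of their 30 promoter sums 0 were called, and 6 were higher (20%) and 0 lower at that level, against 10.1% and 1.13% of all genes. Their median log2 change was 0.22, above that of all genes by 0.057. The smallest p-values belonged to Atpaf1, a chaperone of the ATP synthase head, and to Dmac2, an assembly factor of complex I. Atpaf1 had 250, 252, 217 and 219 in Vehicle and 270, 339, 303 and 381 in iMSBmal1KO libraries, without overlap (log2 change 0.45 ± 0.19, adjusted p = 0.402, limma-trend). Dmac2 had a log2 change of 0.47 ± 0.19. In the other direction were Cmc1 and Ecsit, assembly factors of complexes IV and I, with log2 changes of -0.14 ± 0.19 and -0.13 ± 0.18 and overlapping groups.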

How the data were processed

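ATAC-seq was measured in 8 libraries of mouse gastrocnemius nuclei, 4 Vehicle and 4 iMSBmal1KO. The authors deposited 1 table with a signal per region and library; per the submitters' processing notes, Partek, Bowtie2, MACS2 and DESeq2 and the builds mm10 and GRCm39 were used, with no role or order given, and duplicate removal and the shift of reads for the transposase are not given in the sources used here. In each library 98.3% to 99.8% of non-zero values were whole multiples of 1 step (within 0.02), from 0.428 to 3.13, so the deposited signal is read as counts divided by a factor per library; dividing by the step gave the depths. Since the rest are fractions of a step, whole reads were not recovered for every value and no count model was run. The test used was limma-trend on log2(signal + 1), planned for a scaled signal. As an alternative, limma-voom took the signal divided by the step, with library sizes summed over the tested regions or the tested promoter sums. Chromosome and scaffold names are those of mm10. Coordinates are counted from 1, with region starts as the table gives them. Region ends are printed as the last base, since the table's stop is the base after the region. RefSeq tables are of GRCm38.p6; 73 of 81 OXPHOS genes had a start within 100 bp of the table's.

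Regions were tested with at least 0.762 reads per 1e6 in 4 libraries and 15 reads in all. limma 3.58.1 in R 4.3.3, with robust empirical Bayes and group as the only term, was fitted over 124901 regions and, separately, 12973 promoter sums (regions within 1000 bp of a start), with Benjamini-Hochberg adjustment over each and a threshold of 0.05. Standard errors are limma's. The scripts were tested on simulated data. Named were, for each direction, the 5 member regions of smallest p (at most 1 per gene) and the 5 such promoter sums, the 3 highest and lowest per kb, the isoform pairs, the complex II subunits and 2 pathway genes per direction; genes named beyond these were chosen after their values were seen. Some members and markers that these rules name are not reported here. Members and lists were chosen with earlier results of these data known. Other scalings, filters, pseudocounts, promoter windows, limma-voom, a replicate block and leaving out each library were tried.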

Additional observations from a re-analysis of the deposited data

Results flagged for a closer look

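A library was picked out where its gap to the nearest other library of its group exceeded Dixon's 95% critical share of the group's range for 4 samples. Among 70 groups of values, 4 did, where chance gives about 1 in 20, or 3.5. The promoter sum of Ndufb8 was 235 in iMSBmal1KO replicate 2 and 180 to 187 in the other 3. The promoter sum of Sdhd was 590 in the same library and 489 to 505 in the others. The 3' region of Sdhaf2 that starts at 10508174 had a signal of 71.9 in Vehicle replicate 4, the shallowest library, and 67.8 to 68.2 in the others, a small gap in a tight group. The OXPHOS promoter sums relative to all genes stood at 0.0134 (log2) in iMSBmal1KO replicate 1, the deepest library, and at 0.0566 to 0.0623 in the others of that group.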

How the results depend on the processing

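Of the results that answer a comparison, 410 values under an alternative kept their size within the spread or within 1.5 times, 35 moved and 2 turned. The count of all regions called, 110, was 277 with TMM scaling, 279 with median-of-ratios scaling, 218 with total-read scaling, 342 with loess scaling, 322 with limma-voom, 195 without a filter, 36 at a threshold of 0.01 and 32 to 281 with single libraries left out. The count of OXPHOS regions was 1 with TMM, median-of-ratios and loess scaling, limma-voom and the stricter filter, each time the Atp5o region inside Itsn1, and 0 under the others. The count of all promoter sums, 16, was 60 with limma-voom, 8 at a threshold of 0.01 and 6 to 662 with single libraries left out, the most without Vehicle replicate 2; that of OXPHOS promoter sums was 0 to 9. Over tested regions, deviations of libraries with the same replicate number had correlations of -0.064, 0.140, 0.023 and 0.025. No Vehicle library correlated best with the iMSBmal1KO library of its own number, and among iMSBmal1KO libraries only replicate 2 did. The highest correlation was 0.254, between Vehicle replicate 2 and iMSBmal1KO replicate 1. A tested region held a median of only 6 reads in Vehicle replicate 4, so these correlations cannot decide whether the numbers pair the libraries. The median deviations of OXPHOS promoter sums, in replicate order, were 0.100, 0.117, -0.279 and -0.486 in Vehicle libraries. They were 0.167, 0.295, -0.0014 and 0.091 in iMSBmal1KO libraries. With the replicate block 229 promoter sums were called, 4 of them OXPHOS genes (Atp5mpl, Cox7b, Cox7c and Ndufb8). OXPHOS regions beside starts had a median of -0.11 with TMM and with median-of-ratios scaling and of -0.12 with total-read scaling. The excess of OXPHOS promoter sums over all genes, 0.118, was 0.0821 to 0.137 with single libraries left out. At an unadjusted p under 0.05, the 22 OXPHOS promoter sums became 20 with TMM (8.06% of all genes higher) and 16 with loess scaling (5.43%). As summed signal the log2 ratio was 0.16 for Cox6a2 over Cox6a1, 0.013 for Cox7a1 over Cox7a2 and -0.935 for Cox8b over Cox8a; it was 0.30 for the first with a window of 2000 bp and -1.41 for the last with 500 bp.

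Among single genes, 37 values turned sign, none past the threshold. With limma-voom these were Cox14 -0.164, Cox6a1 -0.0939, Cox7a1 -0.0643, Cox8b -0.0392, Ndufa4 -0.0182 and Ndufaf5 -0.0616; with loess scaling Cox6a1 -0.186, Cox7a1 -0.0409, Cox8b -0.0540 and Sdhc 0.0114. With TMM, median-of-ratios and total-read scaling they were Cox14 -0.0358, -0.0366 and -0.0469, Cox6a1 -0.0681, -0.0689 and -0.0790 and Ndufaf5 -0.0157, -0.0165 and -0.0242. With a 500 bp window Atp5pb was 0.096. With single libraries left out the lowest and highest values were -0.161 and 0.0610 for Atp5pb, -0.048 and 0.20 for Cox14, -0.049 and 0.16 for Cox6a1, -0.13 and 0.054 for Ndufa6, -0.14 and 0.32 for Ndufaf5, -0.12 and 0.063 for Sdhb, -0.20 and 0.20 for Sdhc and -0.24 and 0.021 for Uqcrq. The cause of these moves was not tested. Count models, listed for the case of whole reads, were not run, since some values are fractions of a read. The shallowest library had a median of 15 reads per tested OXPHOS promoter region, which limits the precision there.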
